A study of Mus musculus with 6 samples.

Results

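The nuclear genes for the subunits of respiratory complexes II, III, IV and V, together with cytochrome c, were followed in brain and liver of mice with and without Atxn2. Members were taken by name from the deposited tag table: Sdha to Sdhd for complex II, Cyc1 and the symbols starting with Uqcr for complex III, Cycs for cytochrome c, Cox4 to Cox8 for complex IV and the symbols starting with Atp5 for complex V. This gave 48 genes of 23113 gene features with tags, split into 4, 9, 1, 17 and 17 genes for complexes II and III, cytochrome c, and complexes IV and V. Atp5s, a coupling factor, Atp5sl, its homologue, and Cox7a2l, a factor known for assembling supercomplexes, entered by their names although they are not counted among the core subunits. The study compared C57BL/6 mice homozygous for an Atxn2 knockout (Atxn2-/-) with wild-type mice (Atxn2+/+) in cerebellum, hippocampus and liver to find changes shared by the tissues. Ataxin-2, the protein lost, is an RNA-binding protein. RNA was profiled by MACE (massive analysis of cDNA ends), which yields 1 tag from the 3' part of a transcript, so that levels can be compared between genes without a correction for length. There were 6 libraries, 1 for each genotype and tissue, each a pool of 3 animals aged 6 months, and no treatment is named. The protocol text names midbrain and ages in weeks where the sample labels give hippocampus and months, and the sample labels were followed.

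The mitochondrial respiratory chain moves electrons from metabolic fuels to oxygen and uses the energy to pump protons, and complex V, the ATP synthase, lets the protons flow back to make ATP. Complex II (succinate dehydrogenase) also belongs to the citric acid cycle, complex III passes electrons from ubiquinol to cytochrome c, and complex IV (cytochrome c oxidase) passes them to oxygen. Apart from complex II, these complexes combine subunits encoded in the nucleus, which are described here, with subunits encoded in the mitochondrial genome. Several complex IV subunits exist as a ubiquitous form and a form known from muscle or testis.

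Gene tags numbered 1774523 to 2727523 per library, and the 48 genes together took 2.0% to 2.5% of them. The knockout libraries of cerebellum, hippocampus and liver held 0, 1 and 2 Atxn2 tags against 167, 194 and 115 in wild type. Xist, the X-inactivation RNA of females, was counted 34, 49 and 87 times in the wild-type libraries and 0 times in those of the knockout, so the genotype and the sex of the pooled animals cannot be told apart in any comparison of knockout with wild type below. Markers of the labelled tissues were highest where the labels place them, with 7280.4 and 7842 CPM (tags per 1e6 gene tags, scaled by TMM) for the summed cerebellar list in knockout and wild-type cerebellum, 7489 and 7996 for the hippocampal list in hippocampus and 203867 and 180957 for the liver list in liver. Liver markers also appeared in the brain libraries and were lower in the knockout, at 2815 and 4237 in cerebellum and 403 and 1787 in hippocampus. There 8 of 9 and 10 of 10 measured markers were lower past the size rule given below (5.49% and 8.02% of all features). Ttr, which is also a marker of choroid plexus, made up 2526 and 3673 CPM of these sums in cerebellum and 145 and 399 in hippocampus. Without Ttr the liver list summed to 288 and 564 in cerebellum and 257 and 1388 in hippocampus, and the choroid plexus list to 43.7 and 73.0 in cerebellum and 12.0 and 11.9 in hippocampus. The part of these markers in the genotype ratios of the brain regions was not tested. Each value within a tissue rests on 1 library per genotype, so such ratios have no replicate check, and their intervals (exact Clopper-Pearson, 95%) cover counting error only.

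Most of the subunits were abundant in all 3 tissues. At least 10 CPM was reached by 43 genes in either cerebellum library, 41 in either hippocampus library and 42 in either liver library, and at least 1000 CPM by 3 to 4 genes in the brain libraries and by 14 and 12 in knockout and wild-type liver. In the brain libraries the highest levels belonged to Cox4i1, the largest nuclear subunit of complex IV, and Atp5b, the catalytic beta subunit of the ATP synthase, with Cox4i1 first in both cerebellum libraries and knockout hippocampus and Atp5b first in wild-type hippocampus. Cox4i1 stood at 1576 CPM in knockout cerebellum against 1544 in wild type, 1543 against 1156 in hippocampus and 2276 against 1939 in liver. Atp5b stood at 1382 CPM in knockout cerebellum against 1391 in wild type, 1168 against 1175 in hippocampus and 1933 against 1907 in liver. The 2 genotypes were close for Atp5b in every tissue, whereas in these TMM-scaled levels wild-type hippocampus was the lowest of the 6 libraries for Cox4i1. In liver Uqcrq, a small complex III subunit, came first. Within complex II, Sdhb was the most abundant transcript in each tissue. Cycs, the only cytochrome c gene taken by the naming rule, was at 120.4 CPM in knockout cerebellum against 103 in wild type, 117 against 99.5 in hippocampus and 232 against 167 in liver.

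**Figure D1:**
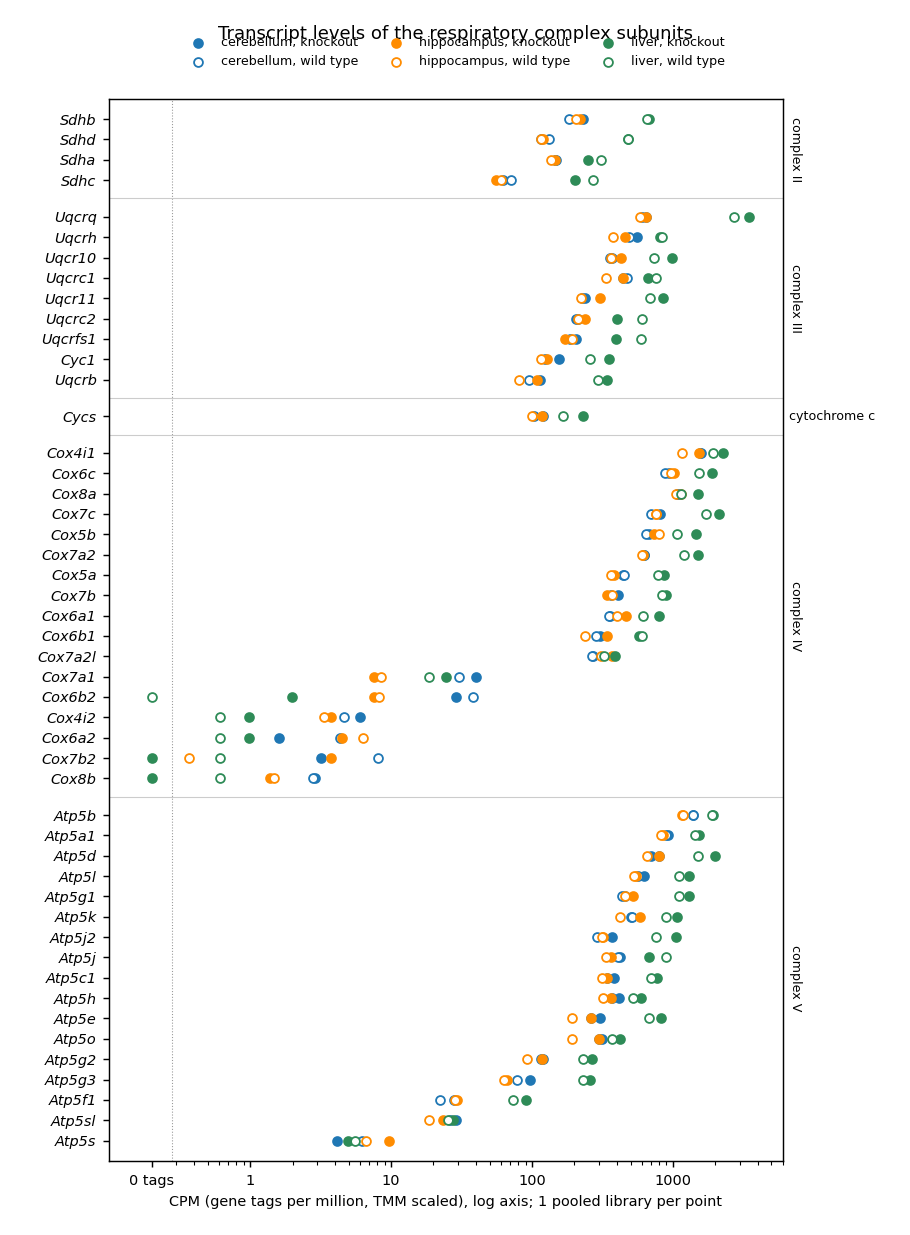
Level of each of the 48 genes in each of the 6 libraries in CPM on a log axis, grouped by complex and sorted by mean level, with filled points for knockout and open points for wild type. Liver points (green) lie to the right for most genes of complexes II, III and V, while Cox7a1, Cox6b2, Cox4i2, Cox6a2, Cox7b2, Cox8b, Atp5f1, Atp5s and Atp5sl lie below 100 CPM in every library; points left of the dotted line have 0 tags.

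The complexes kept similar proportions in the brain regions and differed from them in liver. Complex II took 3.05% and 3.03% of the members' tags for knockout and wild type of cerebellum, 3.0% and 3.22% for hippocampus and 4.18% and 5.11% in liver. Complex III took 15.8% and 16.1%, 16.3% and 15.5% and 21.5% and 22.3% in the same order. Both were larger in liver than in either brain region, in both genotypes. Complex IV had its smallest share in liver, with 41.6% and 41.5%, 43.0% and 43.8% and 37.1% and 35.1%. Complex V lay at 38.9% and 38.9%, 37.1% and 36.9% and 36.6% and 37.0%. These shares do not depend on how the libraries were scaled. In bulk tissue fewer cells of a type and less RNA per cell cannot be told apart.

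Relative to other transcripts, the subunits stood higher in liver than in brain, led by Uqcrq of complex III and the complex II anchors Sdhd and Sdhc, while the scarce complex IV paralogues Cox6b2, Cox7b2, Cox4i2 and Cox6a2 stood lower, on 0 to 2 tags per liver library. Liver was compared with the mean of the brain regions over all 6 libraries (edgeR quasi-likelihood test, Benjamini-Hochberg adjustment over 11377 features). Of 47 members that passed the filter on low counts, 38 were higher in liver (30.5% of all features) and 4 were lower (41.0% of all features). The median log2 difference of the members was 1.03, against -0.29 over all features. The direction from 0 depended on scaling. With library totals in place of TMM, 9 members were higher and 15 lower, the members' median was -0.14 and that of all features -1.45, and the share of higher among all calls went from 42.7% to 15.8%. Relative to the median of all features the members lay higher by 1.32 with TMM and 1.31 with library totals, with 42 and 43 of 47 above that median.

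Among the members higher in liver, Uqcrq, Sdhd and Sdhc had the largest differences. Uqcrq, on chromosome 11 from 53427922 to 53430831 (GRCm38.p6), was at 608 CPM in knockout cerebellum against 639.7 in wild type, 649 against 583 in hippocampus and 3469 against 2716 in liver. Both liver libraries were thus above all 4 brain libraries, and the log2 difference was 2.31 (SE 0.22, adjusted p = 5e-08). Sdhd and Sdhc encode the membrane anchors that bind the heme and ubiquinone of complex II. Sdhd was at 115 CPM in knockout cerebellum against 131 in wild type, 119.7 against 115 in hippocampus and 478 against 479.9 in liver, a log2 difference of 1.99 (SE 0.14, adjusted p = 6.8e-10). Sdhc was at 62.8 CPM in knockout cerebellum against 71.1 in wild type, 55.9 against 60.1 in hippocampus and 201 against 270.4 in liver, a log2 difference of 1.91 (SE 0.14, adjusted p = 1.62e-09). Neither gene's liver levels overlapped with its brain levels. These 3 genes were also higher in liver under each of the alternatives run, with a log2 of 1.14, 0.82 and 0.75 at the least. By complex and with TMM, all 4 complex II genes, all 9 complex III genes and Cycs were higher in liver. So were 9 of 16 tested complex IV genes and 15 of 17 complex V genes, the exceptions in complex V being Atp5s (-0.30) and Atp5sl (0.14). Over the alternatives run, the lowest log2 was below 0 for Cycs (-0.33), Sdha (-0.20), Uqcrc1 (-0.41), Uqcrh (-0.34) and Uqcr10 (-0.00109). It stayed above 0 for the other genes of complexes II and III. Among the ubiquitous complex IV genes Cox8a (0.27, adjusted p = 0.282) and Cox7a2l (0.24, adjusted p = 0.174) did not pass.

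**Figure D2:**
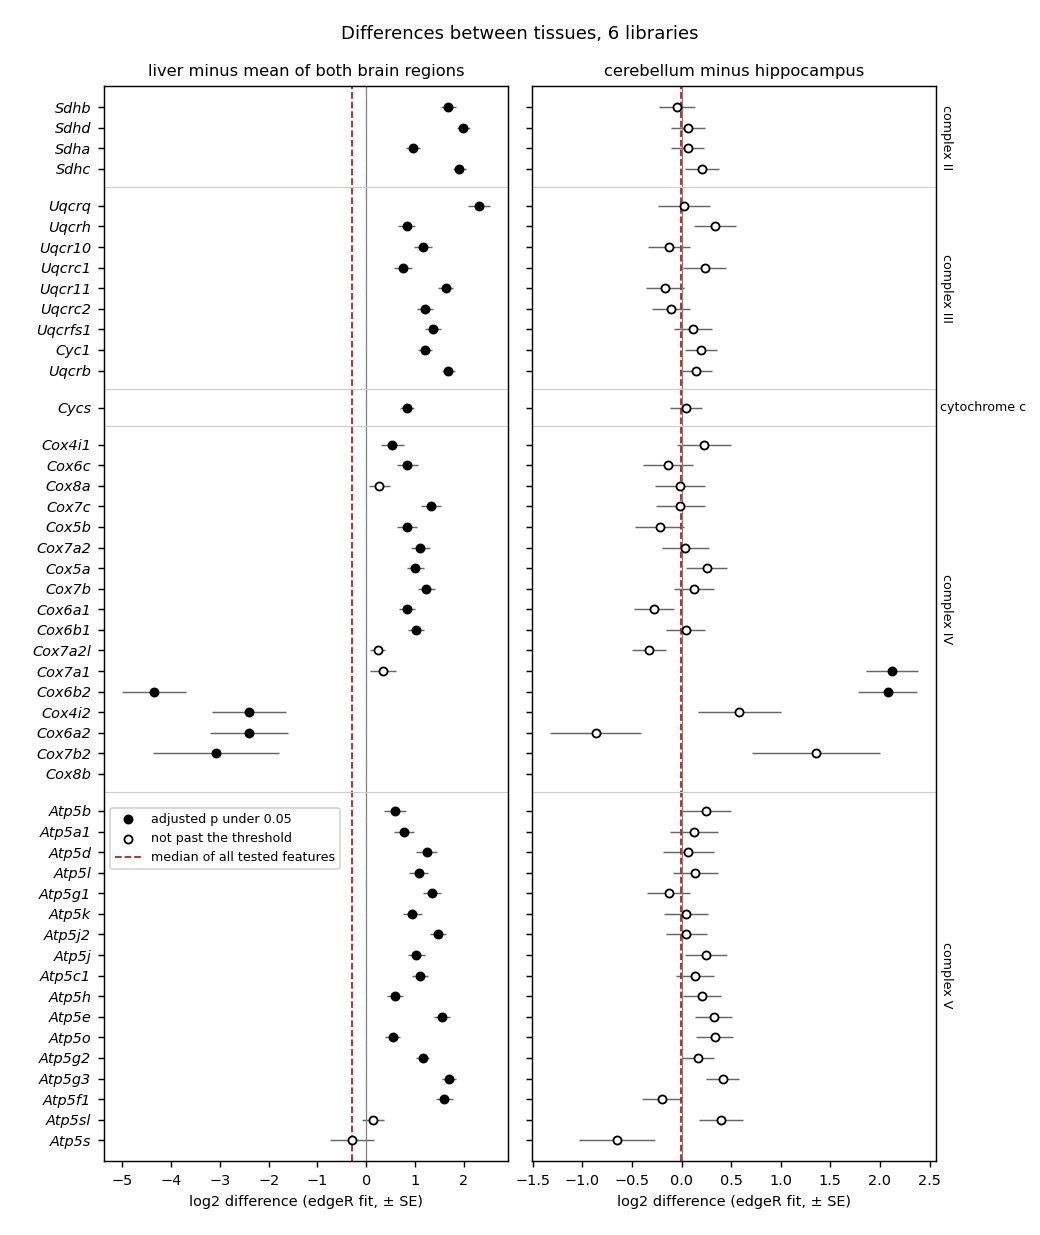
Log2 difference with its SE for each tested member in liver against brain (left) and cerebellum against hippocampus (right), with filled points for an adjusted p under 0.05 and a dashed line at the median of all tested features. On the left 42 of 47 members lie to the right of the dashed line and Cox6b2, Cox7b2, Cox4i2 and Cox6a2 lie far to its left, while on the right Cox7a1 and Cox6b2 stand apart.

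The brain regions differed in few of these genes. Of 47 members, 2 were higher in cerebellum than in hippocampus (12.7% of all features) and 0 were lower (15.0%), with a median log2 of 0.12 against -0.00194 over all features. At an unadjusted p under 0.05 there were 3 higher and 0 lower members in edgeR, or 6.38% of those tested against 37.4% of all features. DESeq2 gave 2 and 0, or 4.26% against 22.6%, and limma voom 8 and 2, or 21.3% against 36.4%. With library totals the share of higher among all calls went from 45.8% to 57.7% and the members' median to 0.24, and 3 members were higher. Without the knockout liver library 6 members were higher and 1 lower, and without the wild-type liver library 5 and 1. The 2 genes called, Cox7a1 and Cox6b2, are both paralogues of a more abundant subunit.

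Cox7a1 is the form of subunit 7a known from heart and skeletal muscle, and Cox7a2 is the widespread form. Cox7a1, on chromosome 7 from 30184171 to 30186030, was at 39.8 CPM in knockout cerebellum against 30.4 in wild type, 7.55 against 8.54 in hippocampus and 24.7 against 18.4 in liver. Both cerebellum libraries lay above the others, and cerebellum exceeded hippocampus by a log2 of 2.12 (SE 0.26, adjusted p = 7.38e-06). Cox7a2 was at 627 CPM in knockout cerebellum against 627 in wild type, 613 against 607 in hippocampus and 1495 against 1189.6 in liver, with a log2 of 0.04 (SE 0.24, adjusted p = 0.92) between the brain regions. Cox7a2l was at 270.2 CPM in knockout cerebellum against 267 in wild type, 371 against 307 in hippocampus and 388 against 325 in liver. Among the tags of the 3 genes, Cox7a1 made up 4.25% (3.55 to 5.04) and 3.3% (2.68 to 4.0) for knockout and wild type of cerebellum, 0.761% (0.478 to 1.15) and 0.926% (0.588 to 1.39) for hippocampus and 1.3% (0.841 to 1.91) and 1.2% (0.813 to 1.71) for liver. The intervals of the cerebellum libraries did not overlap with those of the other tissues. Cox7a2l had its largest share in hippocampus, at 37.4% (35.6 to 39.2) and 33.2% (31.4 to 35.1), and its smallest in liver, at 20.3% (18.6 to 22.2) and 21.2% (19.6 to 22.9).

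Cox6b2 is the form of subunit 6b known from testis, and Cox6b1 is the widespread form. Cox6b2 was at 29.0 CPM in knockout cerebellum against 37.9 in wild type, 7.55 against 8.17 in hippocampus and 1.98 against 0 in liver. Its levels followed an order without overlap, cerebellum above hippocampus above liver, with a log2 of 2.08 (SE 0.29, adjusted p = 3.58e-05) between the brain regions. The knockout liver library held 2 of its tags and the wild-type one 0, and the fitted log2 of liver against brain was -4.35 (SE 0.65, adjusted p = 1.34e-05), a value that depends on the prior count. Cox6b1 was at 304 CPM in knockout cerebellum against 283 in wild type, 339 against 237 in hippocampus and 577 against 599 in liver. Cox6b2 made up 8.71% (7.07 to 10.6) and 11.8% (9.9 to 13.9) of the tags of both genes in knockout and wild-type cerebellum and 2.18% (1.37 to 3.28) and 3.34% (2.1 to 5.01) in hippocampus. The interval for the 0 of 975 tags in wild-type liver reached up to 0.378%. The 5 muscle markers summed to 0.614 to 11.9 CPM over the libraries, and the 3 testis markers Prm1, Prm2 and Tnp1 had 0 tags in each of them.

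The remaining scarce paralogues contributed at most a few percent of their subunit's tags. Cox4i2, the form known from lung, had tag counts, knockout against wild type, of 19 against 15 in cerebellum, 11 against 9 in hippocampus and 1 against 1 in liver. Cox6a2, a muscle form, had 5 against 14 in cerebellum, 13 against 17 in hippocampus and 1 against 1 in liver. Both had fewer tags in the liver libraries than in any brain library. Cox7b2, a testis form, had 10 against 26 in cerebellum, 11 against 1 in hippocampus and 0 against 1 in liver. Cox8b, a muscle form, had 9 against 9 in cerebellum, 4 against 4 in hippocampus and 0 against 1 in liver, and is the member that was too scarce to be tested. The ubiquitous partners Cox4i1, Cox6a1, Cox7b and Cox8a carried at least 97.8% of their set's tags in each library. Cox6a1 was at 357 CPM in knockout cerebellum against 354 in wild type, 467 against 398 in hippocampus and 795 against 616 in liver. Cox7b was at 408 CPM in knockout cerebellum against 365 in wild type, 341 against 367 in hippocampus and 898 against 842 in liver. Cox8a was at 1093 CPM in knockout cerebellum against 1070.3 in wild type, 1139 against 1053 in hippocampus and 1506 against 1132 in liver. In these TMM-scaled levels Cox6a1 and Cox7b were lower in each brain library than in liver. The wild-type liver level of Cox8a was below the knockout hippocampus level. The order depends on scaling, as the lowest liver against brain log2 over the alternatives run was -0.33 for Cox6a1, 0.07 for Cox7b and -0.90 for Cox8a.

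**Figure D3:**
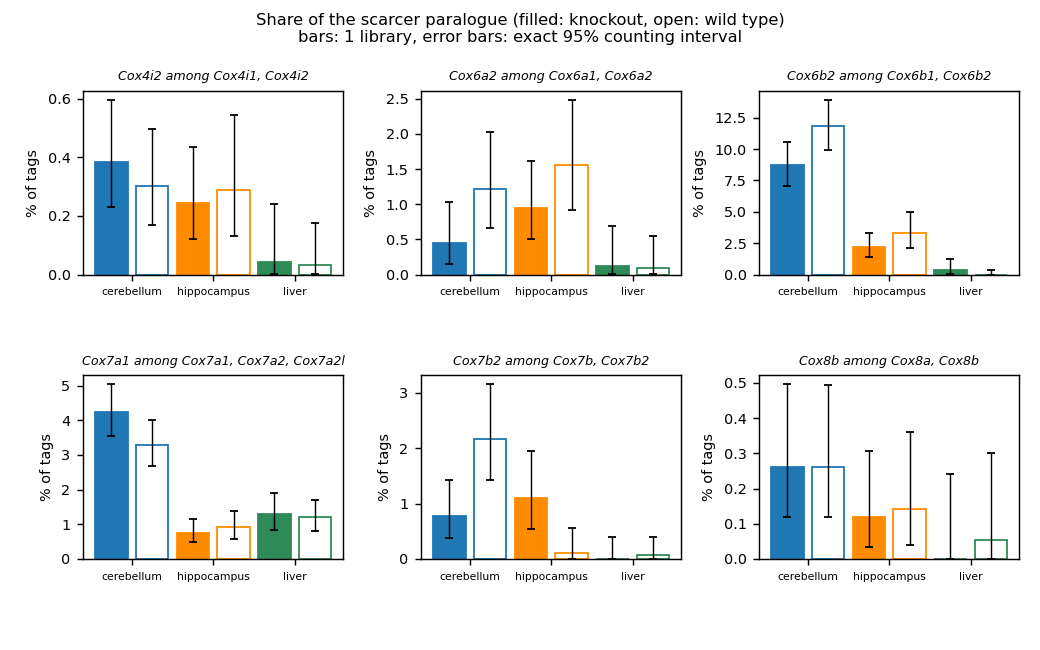
Percent of a paralogue set's tags that came from the scarcer gene in each library, with exact 95% counting intervals, for 6 complex IV sets. Cox6b2 and Cox7a1 have their largest shares in cerebellum, and no share exceeds that of Cox6b2 in wild-type cerebellum, 11.8%.

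The c subunit that forms the proton-driven ring of complex V comes from 3 genes that make the same mature protein. Atp5g1 gave most tags, with shares of 67.9% (65.8 to 69.9) and 69.4% (67.3 to 71.4) for knockout and wild type of cerebellum, 73.9% (71.9 to 75.8) and 74.6% (72.4 to 76.7) for hippocampus and 71.1% (69.0 to 73.2) and 70.6% (68.8 to 72.4) for liver. Atp5g1 was at 455 CPM in knockout cerebellum against 437 in wild type, 523 against 457 in hippocampus and 1293 against 1105 in liver. Atp5g2 was at 119 CPM in knockout cerebellum against 115 in wild type, 118 against 92.1 in hippocampus and 267 against 229 in liver. Each of its tags came from a row shared with the predicted gene Gm10175, so its level is uncertain. Atp5g3 was at 96.5 CPM in knockout cerebellum against 78.0 in wild type, 66.9 against 63.5 in hippocampus and 258 against 232 in liver, with a log2 of 1.70 (SE 0.14, adjusted p = 5.42e-09) for liver against brain. Its share of the c-subunit tags was lowest in hippocampus, at 9.46% and 10.4%.

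The sequences before the start sites of the complex IV paralogues are shown because they belong to the genes whose tissue pattern differs from that of their partner, and Cox6a1 is added as a subunit gene with several of the motifs searched. They are the 250 bases before the annotated start (RefSeq, GRCm38.p6), 5′ to 3′ on the gene's strand, with capitals at matches to the motifs named below.
Cox7a1 (chr7:30183921-30184170, plus strand): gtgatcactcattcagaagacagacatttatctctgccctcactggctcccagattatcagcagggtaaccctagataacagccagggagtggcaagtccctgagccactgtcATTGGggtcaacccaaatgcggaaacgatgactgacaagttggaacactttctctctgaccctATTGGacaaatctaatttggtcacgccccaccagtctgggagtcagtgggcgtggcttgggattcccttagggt
Cox7a2 (chr9:79759854-79760103, minus strand): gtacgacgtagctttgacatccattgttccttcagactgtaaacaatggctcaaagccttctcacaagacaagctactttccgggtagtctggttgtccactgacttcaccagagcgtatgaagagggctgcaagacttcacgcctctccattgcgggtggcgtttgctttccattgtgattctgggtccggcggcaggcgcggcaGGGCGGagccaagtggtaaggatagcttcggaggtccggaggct
Cox6b1 (chr7:30626115-30626364, minus strand): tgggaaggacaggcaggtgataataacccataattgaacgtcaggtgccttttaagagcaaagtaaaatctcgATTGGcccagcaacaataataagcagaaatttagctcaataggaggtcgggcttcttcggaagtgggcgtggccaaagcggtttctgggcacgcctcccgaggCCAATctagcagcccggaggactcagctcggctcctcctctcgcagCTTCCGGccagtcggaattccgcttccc
Cox6b2 (chr7:4753095-4753344, minus strand): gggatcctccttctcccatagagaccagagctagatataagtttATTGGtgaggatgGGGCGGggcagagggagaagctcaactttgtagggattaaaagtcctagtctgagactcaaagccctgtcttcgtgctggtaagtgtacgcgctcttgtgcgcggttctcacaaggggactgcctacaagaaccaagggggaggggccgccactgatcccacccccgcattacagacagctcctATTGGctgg
Cox6a1 (chr5:115348959-115349208, minus strand): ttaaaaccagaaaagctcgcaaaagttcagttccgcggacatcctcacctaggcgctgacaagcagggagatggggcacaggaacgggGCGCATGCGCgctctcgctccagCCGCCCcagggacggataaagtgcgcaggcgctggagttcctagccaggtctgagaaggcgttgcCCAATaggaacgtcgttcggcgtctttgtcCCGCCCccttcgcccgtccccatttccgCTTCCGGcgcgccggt
In both muscle-form Cox7a1 and testis-form Cox6b2 the capitals mark CCAAT boxes, here as their reverse complement, beside a GGGCGG in Cox6b2, and in Cox7a2 they mark a single GGGCGG. Cox6b1 carries CCAAT in both orientations and an ETS motif on the other strand. Cox6a1 holds NRF1, ETS, CCAAT and GGGCGG matches in 1 window.

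Windows of the same 250 bases were searched on both strands for 9 motifs, in 42 windows of 38 members and 32809 of other genes. GCGCATGCG, the core site of nuclear respiratory factor NRF1, was found in 11.9% of member windows and 1.44% of all other windows, the members being Atp5g2, Atp5k, Atp5l, Cox6a1 and Cycs. CCGGAAG, the core read by ETS factors such as GABPA, was found in 21.4% of member windows and 6.89% of all other windows. CCAAT, the NF-Y box, was found in 54.8% of member windows and 33.8% of all other windows. CACGTG, an E-box, was found in 14.3% of member windows and 6.01% of all other windows. AAGATGGCG (YY1) occurred in 2 member windows (4.76%) and 0.60% of the others. TGACGTCA (CREB) occurred in 2 (4.76%) and 1.54% of the others, and TCAAGGTCA (estrogen-related receptor alpha) in 1 (2.38%) and 0.384%. GGGCGG (SP1) was found in 28.6% of member windows and 32.7% of all other windows. TATAAA was found in 4.76% of member windows and 12.4% of all other windows. Matches of different motifs were counted separately, also where they overlapped. The median G and C content was 54.6% in member windows and 52.4% in the others. A match is a string of letters and does not show binding.

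In the knockout most subunit transcripts stood slightly higher than in wild type, in hippocampus and liver more than in cerebellum. Summed over the 48 genes, the log2 ratio of knockout to wild type was 0.05 (0.04 to 0.07) in cerebellum, 0.16 (0.14 to 0.18) in hippocampus and 0.20 (0.18 to 0.22) in liver. The tissues were first combined, with tissue as a block (edgeR quasi-likelihood test, 11377 features). Of 47 members, 0 were higher (0.00879% of all features) and 0 lower (0.0879%), and the smallest adjusted p was 1.00. At an unadjusted p under 0.05 edgeR gave 3 higher members, 6.38% of those tested against 4.68% of all features. DESeq2 gave 0 members, against 1.09% of all features, and limma voom gave 8 higher members, 17.0% against 4.34%. The fitted log2 change was above 0 for 38 of 47 members, with a median of 0.16 against -0.02 over all features. Among 41 members with at least 10 CPM in each tissue, 24 had a ratio above 1 in all 3 tissues with TMM, or 58.5%, against 11.0% of all features, and Sdhc had a ratio below 1 in all 3, against 15.6%. Some of the 24 rest on ratios near equality, such as those of Cox7a2 and Cox7c in hippocampus (log2 0.01 each). Other scalings turned Cox7a2, Cox7c, Atp5j2, Atp5l and Sdhb to below equality in a tissue. They also turned Cox6b1 and Uqcrh to above it in liver, so the count changes with the scaling. The ratios were thus small and mostly above 1, and no member passed the test. With library totals 36 of 47 fitted changes were above 0, and with DESeq2 size factors 38. The 3 libraries of a genotype may come from the same animals, so the p-values speak of the spread between tissues rather than between animals.

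Within each tissue a gene was counted by size, where the log2 ratio was at least 0.32 in size, the mean level at least 10 CPM and the counting interval excluded equality. In cerebellum 3 of 43 members were higher in the knockout (3.77% of all features) and 0 lower (5.49%). In hippocampus 9 of 41 were higher (8.80%) and 0 lower (8.02%). In liver 10 of 42 were higher (7.02%) and 4 lower (11.6%). The members' median log2 ratio was 0.06, 0.15 and 0.23 in cerebellum, hippocampus and liver, against -0.02, 0.01 and -0.07 over all features. Most members are abundant, and the liver ratio of other features rose with level, from a median of -0.18 at 10 to under 30 CPM. At 300 CPM or more the medians were 0.04, 0.12 and 0.23 for 24, 24 and 34 members. Other features of that level had 0.00125, 0.04 and 0.09. The part of the level in the ratios was not tested. The liver count depended on the scaling, with 6 higher members under library totals and 22 under DESeq2 size factors, and medians of 0.16 and 0.35. The medians over all features moved with them, to -0.12 and 0.06, and no share of all features was taken for these counts. Relative to TMM these scalings shift each liver ratio by -0.07 and 0.12. DESeq2 size factors turned the liver direction of Cox6b1, Sdhd and Uqcrh to above equality, and library totals turned that of Atp5b and Sdhb to below it. In the brain regions the shifts were between -0.04 and 0.01 and turned Atp5b, Sdha and Cox7a2 in cerebellum and Cox7c, Cox7a2, Atp5j2 and Atp5l in hippocampus, all of them near equality. Among the 41 members with at least 10 CPM in each tissue, 4 (Atp5d, Cox5b, Uqcrc1 and Uqcrc2), or 9.76%, had ratios on opposite sides of equality in 2 tissues with intervals that excluded it (5.94% of all features). A 1.5-fold ratio past the size rule was found for 2 members: Atp5o was higher in knockout hippocampus and Uqcrfs1 lower in knockout liver.

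**Figure D4:**
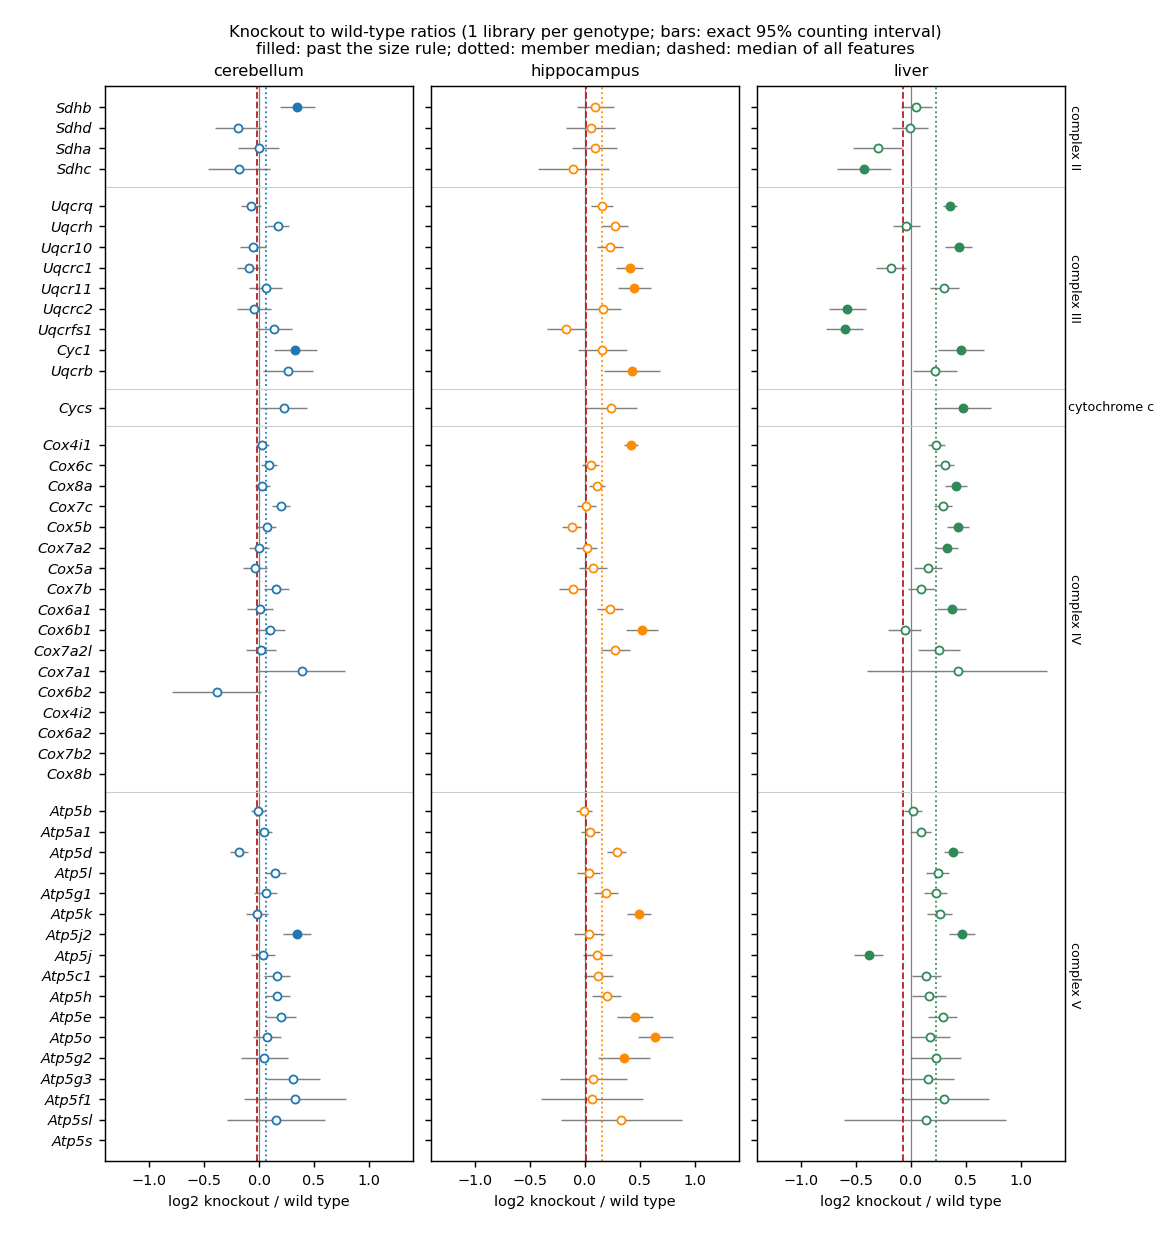
Log2 ratio of knockout to wild type for each member with at least 10 CPM in the tissue, with exact 95% counting intervals, filled where past the size rule. The dotted member median lies right of the dashed median of all features in each tissue, and in liver Sdhc, Uqcrc2, Uqcrfs1 and Atp5j lie to the left.

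In complex II the 4 genes lay on both sides of equality. The summed log2 ratio was 0.06 (-0.03 to 0.16) in cerebellum, 0.06 (-0.04 to 0.17) in hippocampus and -0.09 (-0.18 to -0.00455) in liver, where DESeq2 size factors gave 0.03 in liver and so turned the direction. Sdhb, the iron-sulfur subunit, was at 231 CPM in knockout cerebellum against 182 in wild type, 219 against 205 in hippocampus and 679.7 against 657 in liver, so that knockout cerebellum lay above wild type with a log2 ratio of 0.35 (0.19 to 0.51). For Sdhc the ratios were -0.18, -0.11 and -0.43 (cerebellum, hippocampus, liver), and it passed the size rule in liver, -0.43 (-0.68 to -0.19). Its fitted change across tissues was -0.25 (SE 0.14, adjusted p = 1.00). Sdha, the flavoprotein that oxidizes succinate, was at 147 CPM in knockout cerebellum against 147 in wild type, 145 against 136 in hippocampus and 250.3 against 308 in liver, with -0.30 (-0.53 to -0.08) in liver. Sdhd had ratios of -0.19, 0.05 and -0.01, and none passed the size rule.

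Complex III held the highest fitted change of any member and, in liver, the lowest ratios. Its summed log2 ratio was 0.03 (-0.01 to 0.07) in cerebellum, 0.24 (0.19 to 0.28) in hippocampus and 0.15 (0.11 to 0.19) in liver. Cyc1, cytochrome c1, which hands electrons to cytochrome c, was at 156 CPM in knockout cerebellum against 124 in wild type, 128 against 115 in hippocampus and 351 against 256 in liver. Knockout exceeded wild type in each tissue, by 0.33, 0.16 and 0.45, and the fitted change was 0.31 (SE 0.13, adjusted p = 1.00). Uqcrb, which lies near the ubiquinone site, was at 114 CPM in knockout cerebellum against 94.8 in wild type, 108 against 80.6 in hippocampus and 342 against 294 in liver, and its fitted change was 0.30 (SE 0.13, adjusted p = 1.00). Uqcrfs1 is the Rieske iron-sulfur protein and Uqcrc2 a core protein. Uqcrfs1 was at 206 CPM in knockout cerebellum against 187 in wild type, 172 against 194 in hippocampus and 393 against 597 in liver, a log2 ratio of -0.60 (-0.78 to -0.43) in liver and 0.14 and -0.17 in cerebellum and hippocampus. Uqcrc2 was at 206 CPM in knockout cerebellum against 212 in wild type, 237 against 212 in hippocampus and 404 against 603 in liver, with -0.58 (-0.75 to -0.41) in liver. For both genes the liver libraries differed more between genotypes than either brain pair did. Uqcrc1, the other core protein, was at 442 CPM in knockout cerebellum against 471 in wild type, 444 against 335 in hippocampus and 667 against 755 in liver, past the size rule in hippocampus with 0.41 (0.28 to 0.53). The small subunits (log2 ratio and interval in parentheses) Uqcrq (0.35, 0.29 to 0.42) and Uqcr10 (0.44, 0.31 to 0.56) passed in liver, and Uqcr11 (0.45, 0.30 to 0.60) and Uqcrb (0.43, 0.17 to 0.68) in hippocampus. Uqcrh, the hinge protein, had ratios of 0.17, 0.27 and -0.04, with none past the size rule.

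Cycs, which carries electrons between complexes III and IV, was higher in the knockout of each tissue, in the order above by a log2 of 0.22, 0.24 and 0.47. The fitted change was 0.31 (SE 0.13, adjusted p = 1.00), and the liver ratio passed the size rule, 0.47 (0.21 to 0.73). The 3 members with an unadjusted p under 0.05 in edgeR were thus Cyc1, Cycs and Uqcrb, each above the wild type in all 3 tissues.

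Complex IV transcripts showed their largest summed genotype ratio in liver. The summed log2 ratio was 0.06 (0.03 to 0.08) in cerebellum, 0.13 (0.11 to 0.16) in hippocampus and 0.28 (0.25 to 0.31) in liver. Cox5b, which binds zinc in the matrix part of the complex, was at 671 CPM in knockout cerebellum against 640.0 in wild type, 731 against 795 in hippocampus and 1452 against 1077 in liver, with a log2 ratio of 0.43 (0.33 to 0.53) in liver and -0.12 (-0.21 to -0.03) in hippocampus. Of its tags, 28.3% came from rows shared with a predicted copy. Cox8a (0.41, 0.31 to 0.51), Cox6a1 (0.37, 0.23 to 0.50) and Cox7a2 (0.33, 0.23 to 0.43) also passed in liver. In hippocampus Cox4i1 (0.42, 0.35 to 0.48) and Cox6b1 (0.52, 0.37 to 0.66) passed, and in cerebellum no complex IV gene did. Cox6c had ratios of 0.09, 0.05 and 0.31 and Cox7c of 0.20, 0.01 and 0.30, both highest in liver yet under the size rule. Cox5a had ratios of -0.04, 0.07 and 0.16. The scarce Cox6a2 had the lowest fitted change of the members, -0.77 (SE 0.45, adjusted p = 1.00), followed by Cox7b2 (-0.29, SE 0.61) and Cox6b2 (-0.25, SE 0.28). Cox4i2, equally scarce, had 0.31 (SE 0.41).

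In complex V, 16 of 17 genes had a fitted change above 0, or 14 with library totals. Among the 16, Atp5b (0.000575) and Atp5s (0.00426) lay near 0. The summed log2 ratio was 0.05 (0.03 to 0.08) in cerebellum, 0.17 (0.14 to 0.20) in hippocampus and 0.18 (0.15 to 0.21) in liver. The F1 head holds the catalytic core. Its alpha and beta genes hardly differed, with log2 ratios of 0.05, 0.05 and 0.09 for Atp5a1 in the 3 tissues and -0.01, -0.01 and 0.02 for Atp5b. Atp5e, the epsilon subunit, was at 302 CPM in knockout cerebellum against 264 in wild type, 264 against 193 in hippocampus and 822 against 673 in liver, with 0.46 (0.29 to 0.62) in hippocampus and a fitted change of 0.31 (SE 0.16, adjusted p = 1.00). Atp5d, the delta subunit, was at 702 CPM in knockout cerebellum against 797 in wild type, 793 against 650.1 in hippocampus and 1979 against 1515 in liver, with 0.39 (0.30 to 0.47) in liver and -0.18 (-0.27 to -0.10) in cerebellum. Its knockout level was thus above wild type in hippocampus and liver and below it in cerebellum. Atp5c1, the gamma shaft, had 0.16, 0.12 and 0.14. Among the stalk and membrane genes, Atp5o, the protein that confers oligomycin sensitivity, was at 312 CPM in knockout cerebellum against 296 in wild type, 299 against 192 in hippocampus and 419 against 372 in liver. Wild-type hippocampus was the lowest library in these TMM-scaled levels, and the ratio there, 0.64 (0.48 to 0.80), was the highest of any member past 10 CPM. Of its tags, 99.8% stood in rows shared with a predicted copy. Atp5j2 (subunit f) was at 369 CPM in knockout cerebellum against 290.2 in wild type, 319 against 312 in hippocampus and 1049 against 759 in liver, past the size rule in cerebellum, 0.35 (0.22 to 0.47), and liver, 0.47 (0.35 to 0.59). Atp5k (subunit e) passed in hippocampus, 0.49 (0.38 to 0.60). Atp5j (coupling factor 6) was at 421 CPM in knockout cerebellum against 410.4 in wild type, 364 against 336 in hippocampus and 679 against 886 in liver, lower in knockout liver with -0.38 (-0.52 to -0.25). The stalk gene Atp5f1 (subunit b) had ratios of 0.33, 0.06 and 0.30 in the same order of tissues. Atp5h (subunit d) had 0.17, 0.20 and 0.17, and the membrane gene Atp5l (subunit g) had 0.15, 0.03 and 0.24. None of the 3 passed the size rule. The c-ring genes had ratios between 0.05 and 0.35 in the 3 tissues, with Atp5g2 in hippocampus past the size rule. Atp5sl had ratios of 0.15, 0.33 and 0.14, and the scarce Atp5s had -0.59, 0.52 and -0.16.

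Transcript length moved with the genotype ratio, and its part in the result was not tested. The members are short, with a median annotated length of 777 bases (360 to 3171). Among other features under 1000 bases and with at least 100 CPM, the median log2 ratio was 0.06, 0.15 and 0.15 in cerebellum, hippocampus and liver. Members under 1000 bases had medians of 0.07, 0.23 and 0.27. Other features of 3000 bases or more had -0.04, -0.05 and -0.02 with at least 100 CPM. With at least 10 CPM they had -0.03, -0.02 and -0.17, so the liver value also moved with the level. Spearman's rho of length and ratio was -0.15, -0.28 and -0.35 across 43, 41 and 42 members and 0.00341, -0.12 and -0.21 across all other features, where the genes of a library share its depth and are not independent replicates. Hemoglobin and other blood markers were also higher in the knockout, with summed levels of 834 and 659 CPM for knockout and wild type of cerebellum, 219 and 144 for hippocampus and 917 and 508 for liver, and their part was not tested either. Hba-a1, one of these markers, passed the edgeR genotype test across tissues, with a log2 of 0.86 (adjusted p = 0.0298). It was the only 1 of 11377 features called higher in the knockout. The 6 oligodendrocyte markers summed to 3595 and 4886 in cerebellum and 2326 and 2954 in hippocampus. The sums did not stand for each marker. In cerebellum 4 markers were above equality and 2 below, with a median log2 ratio of 0.02 and 1 lower past the size rule (5.49% of all features). In hippocampus 1 was above and 5 below, with a median of -0.04 and 2 lower past the rule (8.02%). The 6 astrocyte and 6 microglia markers all had a fitted change across tissues below 0, with medians of -0.18 and -0.13. None of them passed the genotype test, and the part of these cell types was not tested.

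**Figure D5:**
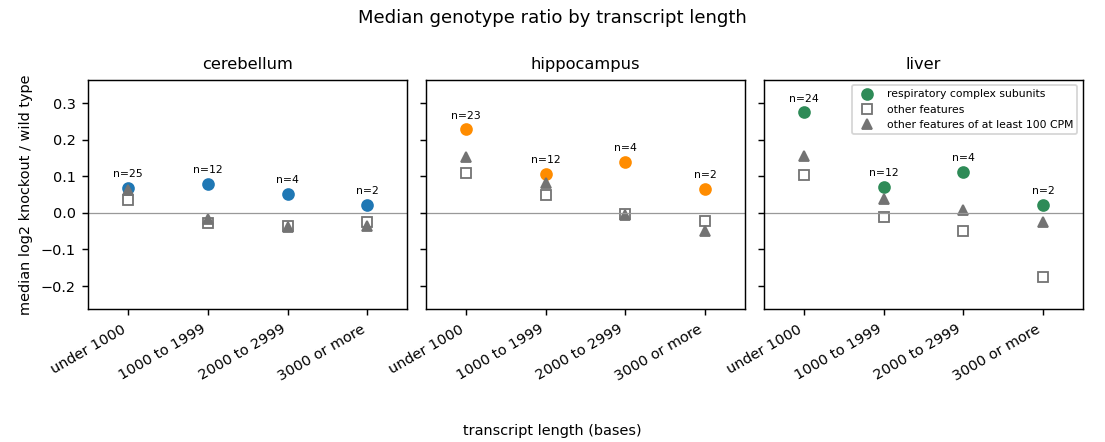
Median log2 ratio of knockout to wild type by class of annotated transcript length, for members (coloured circles, n above), all other features (open squares) and other features of at least 100 CPM (triangles). Members lie above both sets of other features in each class and tissue, and short features lie above long ones in hippocampus and liver.

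Other genes of the pathway were read from lists. Complex I, the entry point for electrons from NADH, had 36 tested subunit genes, of which 0 passed in either direction, 29 were above 0 and the median was 0.11. Its summed log2 ratio was 0.06 (0.03 to 0.08) in cerebellum, 0.16 (0.13 to 0.19) in hippocampus and 0.14 (0.11 to 0.18) in liver. Past the size rule 0 of 35 were called in cerebellum. In hippocampus 7 of 35 were higher (8.80% of all features) and 1 lower (8.02%). In liver 7 of 36 were higher (7.02%) and 2 lower (11.6%). Assembly factors had lower medians than the subunits. The 16 tested complex IV assembly factors, among them the copper and heme insertion proteins, had a median of -0.01 (0.01 with DESeq2 size factors, which turns the sign) with 7 above 0, from Cox15 (-0.64) to Cox19 (0.39). The 3 complex V assembly factors Atpaf1, Atpaf2 and Tmem70 were all below 0, with a median of -0.23, and their liver median was -0.94, with 2 of 3 lower past the size rule (11.6% of all features). Of 16 complex IV factors measured in liver, 1 was higher (7.02%) and 4 lower past that rule. The 2 complex II factors had a median of -0.14 and the 4 complex III factors one of 0.01, or -0.01 with library totals. Of 11 regulators of mitochondrial biogenesis, such as Ppargc1b (0.37) and Gabpa (-0.31), 6 were above 0, with a median of 0.02. The 12 genes taken as a measure of mitochondrial mass, such as Tomm22 (0.25) and Hspd1 (-0.20), had a median of 0.03. No gene of these pathway lists passed the genotype test in edgeR. Usmg5, a further ATP synthase protein, had a fitted change of 0.22, and the inhibitor Atpif1 0.08. Higd2a and Higd1a, which act on supercomplexes, had 0.25 and 0.18.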

How the data were processed

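MACE tags were read from 6 libraries of the deposited combined table. Its values are counts of tags per RefSeq record, deposited by the authors without normalization, per the file headers. Base calls came from CASAVA 1.8.2 and the build was mm9, per the submitters' processing notes. Sense counts were summed per symbol. Rows shared by a named gene and predicted copies went to the named gene, and 7 joint rows of members with other named genes (1 tag each) stayed out. Rows of the mitochondrial genome (9.26% to 12.8% of tags), of genomic contigs (6.22% to 9.51%) and without a match (7.21% to 8.83%) stayed out of library sizes and tests. edgeR 4.0.16 fitted tissue and genotype (TMM, filterByExpr, 2 residual degrees of freedom, Benjamini-Hochberg at 0.05) and was tested on simulated data. In ratios a library with 0 tags was set to 3 tags, and no ratio was given where both libraries had at most 3. Alternatives were other scalings and filters, DESeq2 1.42.0, limma 3.58.1 (voom), other row rules, other size limits, and leaving out tissues or libraries. The named-gene rule took all members, with values in each library for those extreme in a contrast, most abundant in a complex or in a paralogue set. Members and lists were chosen with earlier results of these data known. Lengths are medians over the GENCODE transcripts linked to a gene's RefSeq records. Promoter windows come from RefSeq (GRCm38.p6), with 42 windows for 38 of 48 members.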

Additional observations from a re-analysis of the deposited data

Results flagged for a closer look

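For 5 of 48 members the knockout to wild-type ratio lay above equality in 1 tissue and below it in another, with both counting intervals excluding equality. This was 10.4%, against 3.45% of all features that had a ratio in at least 2 tissues, scarce ones included. With at least 10 CPM in each tissue it was 4 of 41 members, or 9.76% against 5.94%. At that limit library totals and DESeq2 size factors each gave 3 of 41, or 7.32%, against 5.83% and 6.36% of all features. Each tissue has 1 library per genotype, so these differences between tissues were not tested. The log2 ratio of Atp5d was 0.39 in liver and -0.18 in cerebellum, a difference of 0.57, and its value in hippocampus differed from that in cerebellum by 0.47. Uqcrc2 was at 0.16 in hippocampus and -0.58 in liver, a difference of 0.74. Uqcrc1, the partner core protein of complex III, was at 0.41 in hippocampus and -0.18 in liver, a difference of 0.59. Its liver interval included equality with DESeq2 size factors, and the hippocampus interval of Uqcrc2 included it with library totals and with DESeq2 size factors, so each left the count there, while Cox7b entered it with DESeq2 size factors. Cox5b was at 0.43 in liver and -0.12 in hippocampus, a difference of 0.55. Cox7b2 was at 3.35 in hippocampus and -1.34 in cerebellum, a difference of 4.69, on 1 to 26 tags per brain library, with counting intervals of 0.56 to 8.77 in hippocampus and -2.56 to -0.24 in cerebellum.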

How the results depend on the processing

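Of 185 recomputed values, 140 stayed within 1.5 times the count or within the spread of the medians, 44 moved further and 1 changed sign; where the cause is not given by the setting itself it was not tested. The count of 0 members in either direction between genotypes held under every alternative run, with a median log2 between 0.13 and 0.20. For liver against brain, library totals gave 9 higher and 15 lower members and a median of -0.14. A mean CPM of at least 10 and DESeq2 each left 1 lower member, and their medians were 1.08 and 1.17. The median was 1.07 with DESeq2 size factors, 1.02 without a filter, 0.95 with rows of 1 symbol and 0.95 with the single highest row. Leaving out 1 library gave 29 to 38 higher and 2 to 4 lower members (2 without wild-type cerebellum or wild-type liver) and medians of 0.88 to 1.05. For cerebellum against hippocampus, library totals gave a median of 0.24, and leaving out 1 library gave 2 to 6 higher and 0 to 1 lower members. Within liver, library totals gave 6 higher members and a median of 0.16, and DESeq2 size factors gave 22 higher, 2 lower and 0.35. The medians over all features were -0.12 and 0.06 there. Within hippocampus the median was 0.12 with DESeq2 size factors and 0.12 with rows of 1 symbol. A 1.5-fold limit left 0, 1 and 0 higher members in cerebellum, hippocampus and liver and 1 lower in liver, and a 2-fold limit left 0 in each. Without a fold limit 14, 20 and 23 members were higher, and 1 in cerebellum, 1 in hippocampus and 6 in liver were lower. No share over all features was taken at these limits. Without a fold limit abundant genes pass at smaller ratios, so these counts do not set the members apart from other features. A mean CPM of at least 1 gave 1 lower member in cerebellum. No paired analysis was possible because each group has 1 library, other than the pairing by tissue that the genotype test holds as its block. Without that tissue block 0 members passed and the median was 0.18. By a rule added after seeing the data, the count of members with opposite ratios in 2 tissues was 4 with library totals and 4 with DESeq2 size factors, against 5.

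Depth limits the scarce paralogues, whose shares rest on 0 to 125 tags per library, and the tissues are the only replication of genotype, with 2 residual degrees of freedom. Leaving out libraries was not run for ratios within a tissue, where it leaves none. Sex and genotype cannot be told apart, and tissue differences rest on 2 libraries per tissue of different genotype.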

Other observations

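The mitochondrial genome, which encodes the remaining subunits of complexes III, IV and V, is a single undivided row of the deposited table. Per 1000 of its tags, the 48 nuclear genes had 145 and 149 tags for knockout and wild type of cerebellum, 108 and 97.0 for hippocampus and 144 and 147 for liver. The knockout value was below wild type in cerebellum and liver and above it in hippocampus. This ratio does not depend on the scaling of the libraries, and it has no replicate within a tissue.

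Antisense tags of the members were rare, at 182 over the 6 libraries against 302692 sense tags. Atp5g3 had the most, 44 against 1558 sense tags, or 28.2 per 1000.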
